A study of Rattus norvegicus with 6 samples.

Results

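Mesothelial cells of the rat pancreas were picked from the single-cell data by 5 transcripts, Msln (mesothelin), Upk3b and Upk1b (uroplakins), Lrrn4 (a leucine-rich repeat membrane protein) and Wt1 (the Wilms tumour transcription factor). A cell was a member if it had at least 200 detected genes, at most 25% mitochondrial UMIs (unique molecular identifiers, 1 per captured RNA molecule), at least 2 of the 5 genes and no UMI of Ptprc, the pan-leukocyte gene. This gave 320 of 75981 kept cells, 66 and 32 in young replicates 1 and 2, 56 and 40 in old, and 113 and 13 in HFHF-old, and all values below follow that order of rats. The 5 genes and Ptprc chose the cells, so their levels are a description. The comparison class was fibroblasts, 11826 cells with at least 3 of Col1a1, Col1a2, Col3a1, Dcn, Lum and Pdgfra, no Ptprc UMI and no membership, and these genes are likewise only described.

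The study sequenced islet preparations from 6 male Wistar rats, 2 per group. Young rats were 2 months old on normal chow, old rats were 20 months old after 18 months of the control diet, and HFHF-old rats were 20 months old after 18 months of a high-fat high-fructose diet. Each library was 1 rat. Islets were enriched with collagenase P and a density gradient, so the mesothelial cells measured here were those that came along with the islets.

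The mesothelium is the single layer of flat cells that covers the abdominal organs, the pancreas included, and lines the body wall opposite them. It rests on a basement membrane, carries microvilli with a slippery coat of glycoproteins, and holds keratins and tight junctions as an epithelium does although it arises from mesoderm. It is also known for fibrinolysis, for retinoic acid synthesis and as a source of fibroblast-like cells after injury.

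The members were of 2 kinds. At least 3 of the 5 genes were detected in 100 cells, which were 22, 2, 25, 21, 23 and 7 by rat, and 43 of them had all 5. Exactly 2 genes were detected in 220 cells, 44, 30, 31, 19, 90 and 6 by rat, and in 146 of these the pair was Msln and Wt1. In 62 of the 220 cells each of the 2 genes was seen as 1 UMI, against 0 of the 100 cells with 3 or more. Just outside the threshold lay 6097 cells without Ptprc in which 1 of the genes was detected, in 2835 of them as 1 UMI.

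**Figure D1:**
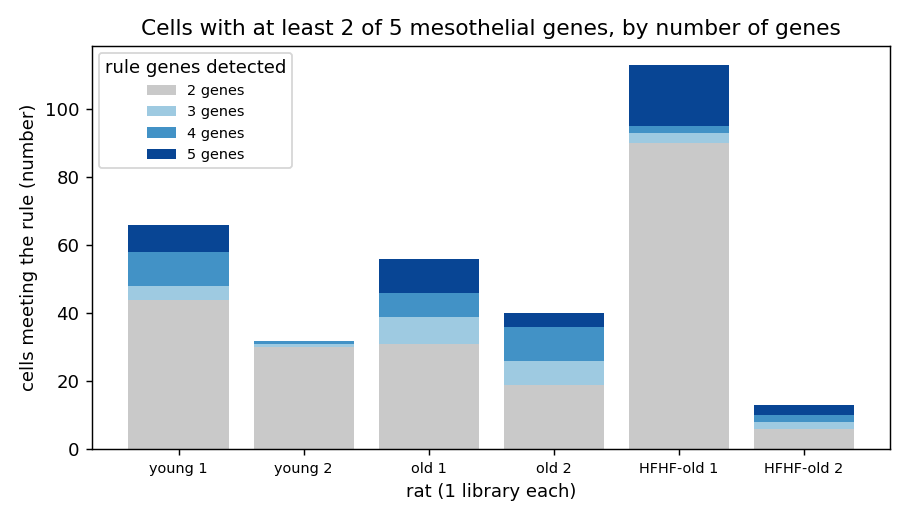
Number of cells that met the rule in each of the 6 rats, divided by how many of the 5 genes of the rule were detected. Cells with exactly 2 genes made up 90 of the 113 in HFHF-old replicate 1 and 30 of the 32 in young replicate 2, while in old replicates 1 and 2 cells with 3 or more came to 25 of 56 and 21 of 40.

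The label was checked with Nkain4, Cldn15 and Bnc1, mesothelial genes that the rule does not hold and that were chosen for this check after their values had been seen. At least 2 of these 3 were detected in 89 of the 100 cells with 3 or more genes, in 3 of the 220 cells with exactly 2, in 2 of 11826 fibroblasts and in 0 of 470 ductal cells (0 allows a share of up to 0.638%). Because these 3 genes were picked on their values, the counts describe the cells and test nothing. Over a whole list of 29 other mesothelial genes in the files, the summed share of UMIs was 1.61%, 1.23%, 1.98%, 1.55%, 1.22% and 1.59% in the cells with 3 or more genes, 0.218% to 0.454% in those with exactly 2 and 0.278% to 0.693% in fibroblasts. The first class lay above the others in every rat, and the ranges of the other classes overlapped. The classes are named by their rule alone, as 3-gene cells and 2-gene cells, and the text turns on the 100 3-gene cells. The fibroblast rule was also met by 70 of the 100 and by 181 of the 220, and over 20% of the UMIs came from Ins1 and Ins2, the insulin genes, in 1 of the 100 and 20 of the 220. A rule for ductal cells was met by 0 of the 100 and 11 of the 220.

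Depth differed between the classes and the rats. The median 3-gene cell held 10430, 18855.5, 7743, 6763, 34725 and 14443 UMIs, and the median fibroblast 5318, 6178, 8649.5, 1991, 13128 and 9287. The deepest cells of both classes were in HFHF-old replicate 1, and the library totals ran from 77387928 to 166875258 UMIs. Summed over all rats, the 3-gene cells gave 1943659 UMIs, the 2-gene cells 5302872 and the fibroblasts 102872885. No member's barcode occurred in more than 1 library. Levels below are CPM, a gene's UMIs per 1000000 UMIs summed over the cells of a class in a rat, which corrects for depth. With 3' counting they were compared for the same gene between classes, not between genes.

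The genes of the rule were high in the 3-gene cells of every rat, as the rule requires. Msln, a surface glycoprotein of mesothelium, was at 2818, 2625, 2373, 2193, 2121 and 823 CPM, against 0.285 to 116 CPM in fibroblasts. Its detection was not particular to members. Msln was found in 153 of 470 ductal cells, at 44.7 to 326 CPM by rat. It was also found in 1153 of 2408 other cells with over 20% insulin UMIs, at 82.6 to 396 CPM. Upk1b was at 538, 371, 733, 458, 424 and 391 CPM and Upk3b at 178, 239, 254, 264, 121 and 108 CPM. These 3 were lowest or near lowest in HFHF-old replicate 2, the rat with 7 such cells. Lrrn4 was at 55.4, 0, 58.4, 45.1, 70.1 and 41.6 CPM, and the 0 came from young replicate 2 with its 2 cells. Wt1 was at 459, 822, 563, 613, 536 and 623 CPM, above the 122, 19.7, 121, 122, 120 and 161 CPM of fibroblasts in every rat. Its detection was not particular to these cells, since 3473 of 11826 fibroblasts had a Wt1 UMI. In the 2-gene cells Msln was at 396, 296, 176, 420, 43.7 and 0 CPM (146, 343, 237, 494, 33.5 and 0 without the insulin-rich cells, 3 of which held 293 of the 367 UMIs of young replicate 1) and Wt1 at 136, 106, 94.3, 48.2, 197 and 263 CPM, which for Wt1 lies in the fibroblasts' range in 4 of the 6 rats.

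The genes of the fibroblast rule were described in the same way. Col3a1, a fibrillar collagen, was at 7049, 5410, 1459, 1574, 2303 and 549 CPM in 3-gene cells and at 10781, 4289, 2910, 3028, 6001 and 1234 CPM in fibroblasts, so that within each rat except young replicate 2 the fibroblasts lay above. That rat had 2 3-gene cells, and islet genes took 25.3% of its fibroblasts' UMIs. Fibroblasts with a Wt1 UMI, 89 cells in that rat, held Col3a1 at 12077, 14162, 3647, 2051, 8877 and 1262 CPM by rat. The part of islet RNA or mixed cells in the order of that rat was not tested. Dcn (decorin) was at 416, 159, 213, 1645, 189 and 1812 CPM in 3-gene cells against 9592, 3285, 11106, 11060, 6603 and 11169 CPM. The 2 highest of the mesothelial values rested on few cells, with 213 of the 255 Dcn UMIs of old replicate 2 and 158 of the 218 of HFHF-old replicate 2 in a single cell each.

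The question of the first comparison was how the transcriptome of these cells differs from that of fibroblasts of the same rats. Sums per rat were tested with edgeR with the rat as a block, and genes were called where the p adjusted by Benjamini-Hochberg over every gene of the fit was under 0.05 and the change was over 1.5-fold in either direction. Over all 320 members and 6 rats, 936 of 11923 genes (7.85%) were higher and 1019 (8.55%) were lower than in fibroblasts. The 3-gene cells could be fitted in the 4 rats with at least 10 of them (young replicate 1, both old rats and HFHF-old replicate 1), and there 1313 of 11402 genes (11.5%) were higher and 1699 (14.9%) lower. For the 2-gene cells, in 5 rats, 271 of 11597 genes (2.34%) were higher and 166 (1.43%) lower. The 3 fits share their fibroblasts. With members that also meet the fibroblast rule left out, 2 rats (both old) had enough cells, and 2171 of 11735 genes were called. That fit had 1 residual degree of freedom, too few to estimate a spread between rats well, so its count is given as a description. Log2 fold changes are given as mean ± SE against fibroblasts, first over all members (n = 6 rats) and then over 3-gene cells (n = 4 rats), and p-values measure the spread between rats.

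Wfdc21, a small secreted protein with a whey acidic protein domain, was at 9357, 3739, 4088, 4296, 2963 and 4913 CPM in 3-gene cells and at 0 to 1.45 CPM in fibroblasts. No rat's value in one class came near the other class, and the log2 fold change was 10.46 ± 0.74 (adjusted p = 8.4e-06) over members and 12.15 ± 0.50 (adjusted p = 1.6e-09) over 3-gene cells. Its relative Wfdc18 was at 33.3 to 504 CPM, with 3 UMIs in all fibroblasts, a ratio of pooled levels of 8133 (95% counting interval 2766 to 39583). In the 2-gene cells Wfdc21 was at 67.9, 6.62, 55.3, 127, 4.89 and 0 CPM.

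Pkhd1l1, a large membrane protein related to fibrocystin, was at 1528, 1167, 2241, 787, 1470 and 1072 CPM in 3-gene cells and at 0.341 to 5.42 CPM in fibroblasts (log2 fold change 7.69 ± 0.31 and 9.35 ± 0.39). Nkain4, which interacts with the sodium pump, was at 811, 610, 1497, 1238, 622 and 482 CPM against 0.856 to 7.50 CPM (6.76 ± 0.71 and 8.86 ± 0.32). Bnc1, a zinc finger factor of basal epithelia and mesothelium, was at 79.2 to 206 CPM against 0 to 0.338 CPM in fibroblasts. Its log2 fold change of 10.91 ± 0.43 over 3-gene cells is imprecise in size, since only 4 of 11826 fibroblasts held a UMI. For all of these the classes were far apart in every rat. Among genes with a mean of at least 100 CPM over all members, the other largest changes were in Igfbp2 (IGF binding protein, 125 to 701 CPM against 0.359 to 14.2 CPM, 5.61 ± 0.70), Kcnd3 (a potassium channel, 5.60 ± 0.47), Gcnt2 (a glycan-branching enzyme, 707 to 1025 CPM against 0.285 to 11.3 CPM, 5.51 ± 0.56), Fras1 (a basement membrane protein of epithelia, 116 to 503 CPM against 1.62 to 6.48 CPM, 5.15 ± 0.43), Fxyd3 (a sodium pump regulator, 5.11 ± 0.60), Il16 (4.89 ± 0.58) and Dsp (desmoplakin, 4.75 ± 0.48). Genes that reached 100 CPM over 3-gene cells, but not over all members, and had large changes in both fits were Clic3 (208 to 469 CPM, 9.13 ± 0.31), the serotonin receptor Htr4 (149 to 246 CPM, 8.85 ± 0.35), Hpd of tyrosine breakdown (24.4 to 322 CPM, 8.32 ± 0.37), the fibrinogen gamma chain Fgg (79.6 to 355 CPM, 8.18 ± 0.31) and Egfl6 (33.3 to 245 CPM, 8.15 ± 0.44).

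Of 24 tested genes in a list of other mesothelial markers, 16 were higher and 2 lower over all members, with a median log2 fold change of 2.48 against -0.04 over all genes tested. Over 3-gene cells 21 of 25 were higher and 2 lower (median 3.26). The shares of all genes were 7.85% higher and 8.55% lower over all members, and 11.5% and 14.9% over 3-gene cells. Gpm6a, a membrane glycoprotein, was at 5450, 2042, 6270, 3412, 2189 and 3425 CPM in 3-gene cells and 111 to 623 CPM in fibroblasts (1.77 ± 0.23 and 3.14 ± 0.23). The lowest mesothelial rat was above the highest fibroblast sum. Detection of Gpm6a was not particular to members. It was found in 98 of the 100 3-gene cells and 149 of the 220 2-gene cells. It was also found in 7087 of 11826 fibroblasts and 285 of 470 ductal cells. With cells thinned to an equal number of UMIs and shallower ones left out, the shares were 90.8% of 3-gene cells, 34.8% of 2-gene cells and 45.4% of fibroblasts. Calb2 (calretinin), a marker of human mesothelium singled out here after its value was seen, had 0 UMIs in the 3-gene cells. For the 2-gene cells 6 of 22 genes of the list were higher and 3 lower (median 0.19), against 2.34% and 1.43% of all genes.

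**Figure D2:**
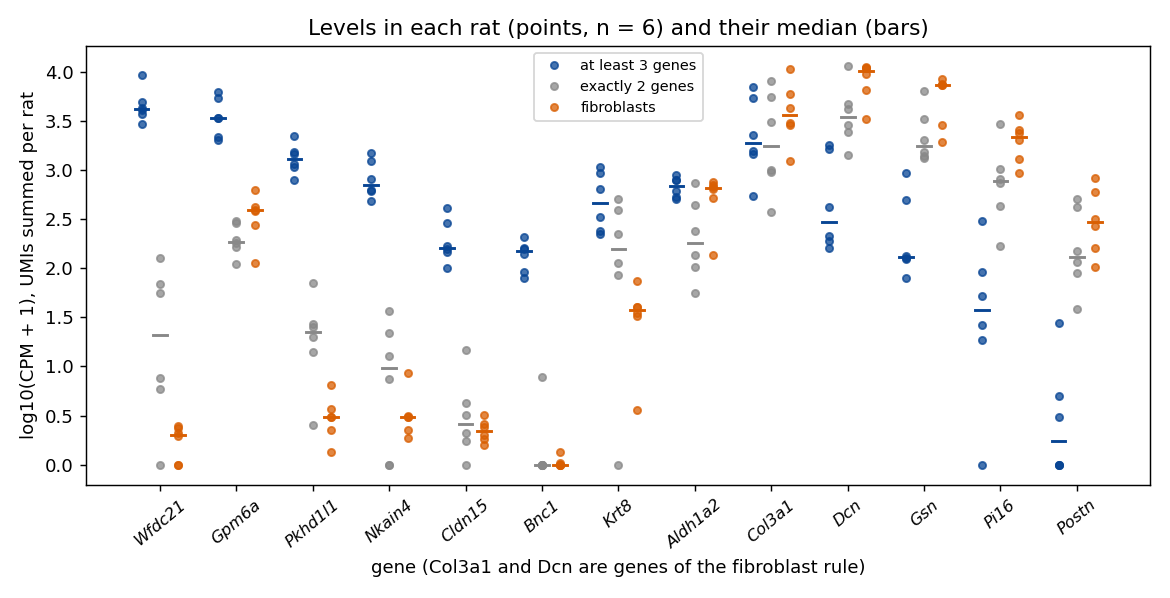
Levels of 13 genes as log10(CPM + 1) in 3-gene cells, 2-gene cells and fibroblasts, with a point for each of the 6 rats and a bar at the median. Wfdc21, Pkhd1l1, Nkain4, Cldn15 and Bnc1 separated 3-gene cells from both other classes in every rat, whereas for Gsn the 2-gene cells lay at 1340 to 6390 CPM, nearer to fibroblasts.

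Genes of epithelial junctions and keratins were higher. Over all members 20 of 24 tested junction and keratin genes were higher and 0 lower (median 2.15), against 7.85% and 8.55% of all genes. Over 3-gene cells 17 of 22 were higher and 4 lower (median 3.06), against 11.5% and 14.9%. In the 2-gene cells 16 of 22 were higher and 0 lower (median 2.49), against 2.34% and 1.43%. The count over all members is thus not particular to the 3-gene cells. The tight junction genes Cldn15 (claudin 15) at 99.8 to 406 CPM, Cgn (cingulin) at 49.9 to 159 CPM and F11r (JAM-A) at 83.1 to 147 CPM compared with at most 2.22, 2.01 and 7.84 CPM in fibroblasts. Their log2 fold changes over 3-gene cells were 6.86 ± 0.38, 5.97 ± 0.29 and 4.30 ± 0.24. Krt8, a keratin of simple epithelia, was at 241, 928, 639, 335, 1082 and 224 CPM against 2.57 to 73.4 CPM (3.27 ± 0.43 and 3.65 ± 0.35), and the groups did not overlap. Dsp of desmosomes was at 150 to 439 CPM against 0 to 5.92 CPM, with a log2 fold change of 5.73 ± 0.28 over 3-gene cells.

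Among the cadherins, some were higher and others near 0. Cdh3 (P-cadherin) was at 70.9 to 147 CPM against 0.143 to 1.52 CPM in fibroblasts (5.71 ± 0.52 and 7.16 ± 0.40), and Cdh11, a cadherin of mesenchyme, at 1034 to 3087 CPM against 23.3 to 112 CPM (3.43 ± 0.23 and 4.72 ± 0.28). Cdh1 (E-cadherin) had 2 UMIs in the 3-gene cells of the 4 fitted rats, a ratio to the fibroblasts' pooled level of 0.112 (95% counting interval 0.0135 to 0.404). Epcam, an adhesion molecule of epithelia, was at 0 to 24.9 CPM in 3-gene cells and 0.428 to 51.9 CPM in fibroblasts and was lower (log2 fold change -1.18 ± 0.31, adjusted p = 0.01).

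For both of these the fit over all members gave the opposite direction, 2.16 ± 0.38 for Cdh1 (adjusted p = 0.003) and 2.13 ± 0.41 for Epcam (adjusted p = 0.0045). In the 2-gene cells Epcam was at 98.1, 190, 365, 420, 61.7 and 0 CPM and Cdh1 at 36.7, 46.3, 111, 86.1, 25.6 and 0 CPM, above the 3-gene cells in the first 5 rats for Epcam. Islet and ductal cells express both genes, and the UMIs of 10 islet genes made up 36.5%, 33.9%, 39.5%, 50.2%, 6.43% and 0.00188% of the 2-gene cells' total. The 20 insulin-rich cells carried much of this, and without them the shares were 6.86%, 22.1%, 0.632%, 11.1%, 1.03% and 0.00188%. A fit over all members without the insulin-rich cells of either class called 924 of 11857 genes higher and 835 lower. Its values for Cdh1 and Epcam are not given here, and the part of insulin-rich cells in their direction is not judged.

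Of the genes of the apical surface 9 of 17 tested were higher and 3 lower over all members (median 1.36), against 7.85% and 8.55% of all genes, and 10 of 16 were higher and 3 lower over 3-gene cells (median 2.37), against 11.5% and 14.9%. Ezr (ezrin), which anchors microvilli to actin, was at 475 to 1167 CPM in 3-gene cells and 7.71 to 19.7 CPM in fibroblasts (4.28 ± 0.37 and 5.82 ± 0.31). The water channel Aqp1, which the study used to mark endothelium, was at 91.0 to 345 CPM against 1.08 to 20.6 CPM (3.30 ± 0.66 and 4.78 ± 0.48), and Podxl (podocalyxin) at 26.5 to 115 CPM against 0.808 to 11.4 CPM (3.19 ± 0.63 and 4.93 ± 0.45). Both were apart from fibroblasts in every rat. Has1, a hyaluronan synthase, went the other way, at 0 to 266 CPM against 46.6 to 865 CPM (-1.70 ± 0.32 and -4.04 ± 0.27). Has2, another hyaluronan synthase, had 2 UMIs in 3-gene cells of the 4 rats, a ratio of 0.00704 to fibroblasts, but stood at 58.2 CPM against 138 CPM in HFHF-old replicate 2, which was outside the fit.

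Fibrillar matrix genes were mostly lower. Of 21 tested genes outside the rule, 1 was higher and 15 lower over all members (median -0.97), against 7.85% and 8.55% of all genes. Over 3-gene cells 3 were higher and 16 lower (median -2.12), against 11.5% and 14.9%. Fbn1 (fibrillin 1) was at 106 to 898 CPM in 3-gene cells and 1909 to 6827 CPM in fibroblasts (-1.58 ± 0.32 and -4.38 ± 0.26), and Col12a1, which coats collagen fibrils, at 0 to 35.6 CPM against 83.5 to 748 CPM (-2.16 ± 0.53). Postn (periostin) had 3 UMIs in the 4 fitted rats against 509 CPM in fibroblasts, a ratio of 0.0033 (95% counting interval 0.00068 to 0.00964), and Col8a1 had 2 UMIs (ratio 0.00586). The 3 higher ones were Lox (lysyl oxidase, which cross-links collagen, 0.83 ± 0.21 over 3-gene cells) and the small proteoglycans Fmod and Bgn. Fmod (fibromodulin) was at 158 to 610 CPM against 0 to 6.70 CPM (5.80 ± 0.71 and 7.86 ± 0.53), and Bgn (biglycan) at 619 to 1087 CPM against 106 to 498 CPM (0.69 ± 0.25, adjusted p = 0.079, and 1.14 ± 0.29, called over 3-gene cells).

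In a list of other fibroblast genes, 0 of 23 were higher and 16 lower over all members (median -1.16), against 7.85% and 8.55% of all genes. Over 3-gene cells 2 were higher and 17 lower (median -3.93), against 11.5% and 14.9%. Pi16, a marker of adventitial fibroblasts, was at 0 to 299 CPM in 3-gene cells against 928 to 3618 CPM (-1.89 ± 0.34 and -5.83 ± 0.33), Gsn (gelsolin) at 79.6 to 931 CPM against 1954 to 8493 CPM (-1.69 ± 0.25 and -5.15 ± 0.37), and Mfap5 of microfibrils at 2.54 to 200 CPM against 650 to 1699 CPM (-1.62 ± 0.29 and -5.59 ± 0.57). The ranges of the classes did not overlap for these 3. For Pi16 the 299 CPM of HFHF-old replicate 2 was 36 UMIs of 1 cell, and 13 of the 14 UMIs of old replicate 2 were also in 1 cell. Ccdc80, which the study used to mark fibroblasts, was higher in 3-gene cells, at 2319 to 5542 CPM against 697 to 3222 CPM (0.72 ± 0.23, adjusted p = 0.029), with overlapping ranges, and its log2 fold change was 0.13 ± 0.17 over all members. For the 2-gene cells 0 genes of either this or the fibrillar list were called in the edgeR fit, with medians of -0.83 and -0.79.

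The genes with the lowest log2 fold changes over 3-gene cells, among those with a mean over rats of at least 100 CPM in fibroblasts, rested on 0 to 3 UMIs in the 4 fitted rats and are given as ratios to the fibroblasts' pooled level. Besides Fgf10, Postn, Col8a1 and Has2, they were Efhd1, a mitochondrial calcium sensor (1 UMI against 366 CPM in fibroblasts, ratio 0.00153, 95% counting interval 3.9e-05 to 0.00852), Galnt16 (ratio 0.00602), the aminopeptidase Anpep (0.00718), the chemokine Cxcl9 (0.00721), the aldo-keto reductase Akr1c3 (0.00723) and Gap43 (0.00802). These ratios leave out HFHF-old replicate 2, whose 7 cells held more of several of them. Efhd1 was there at 49.9 CPM against 495 CPM in fibroblasts, Akr1c3 at 33.3 CPM against 343 CPM, Galnt16 at 24.9 CPM against 319.9 CPM and Anpep at 24.9 CPM against 243 CPM. Fgf10 had 0 UMIs there too.

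Of the basement membrane list 3 of 21 tested were higher and 11 lower over all members (7.85% and 8.55% of all genes), and 3 were higher and 12 lower over 3-gene cells (11.5% and 14.9% of all genes, median -1.12). Col4a6, a type IV collagen chain of epithelia, was at 6.45 to 35.6 CPM against 0.505 to 3.21 CPM in fibroblasts (2.55 ± 0.56 and 3.74 ± 0.68), and Lamb3, a chain of epithelial laminin, at 0 to 60.9 CPM against 0.169 to 1.09 CPM (5.52 ± 0.54 over 3-gene cells). Lama2, a laminin chain of mesenchyme and muscle, was at 0 to 186 CPM against 434 to 2192 CPM (-1.47 ± 0.30 and -3.79 ± 0.22), and Nid1 (nidogen) at 38.7 to 133 CPM against 356 to 1413 CPM (-1.51 ± 0.29 and -3.85 ± 0.26).

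**Figure D3:**
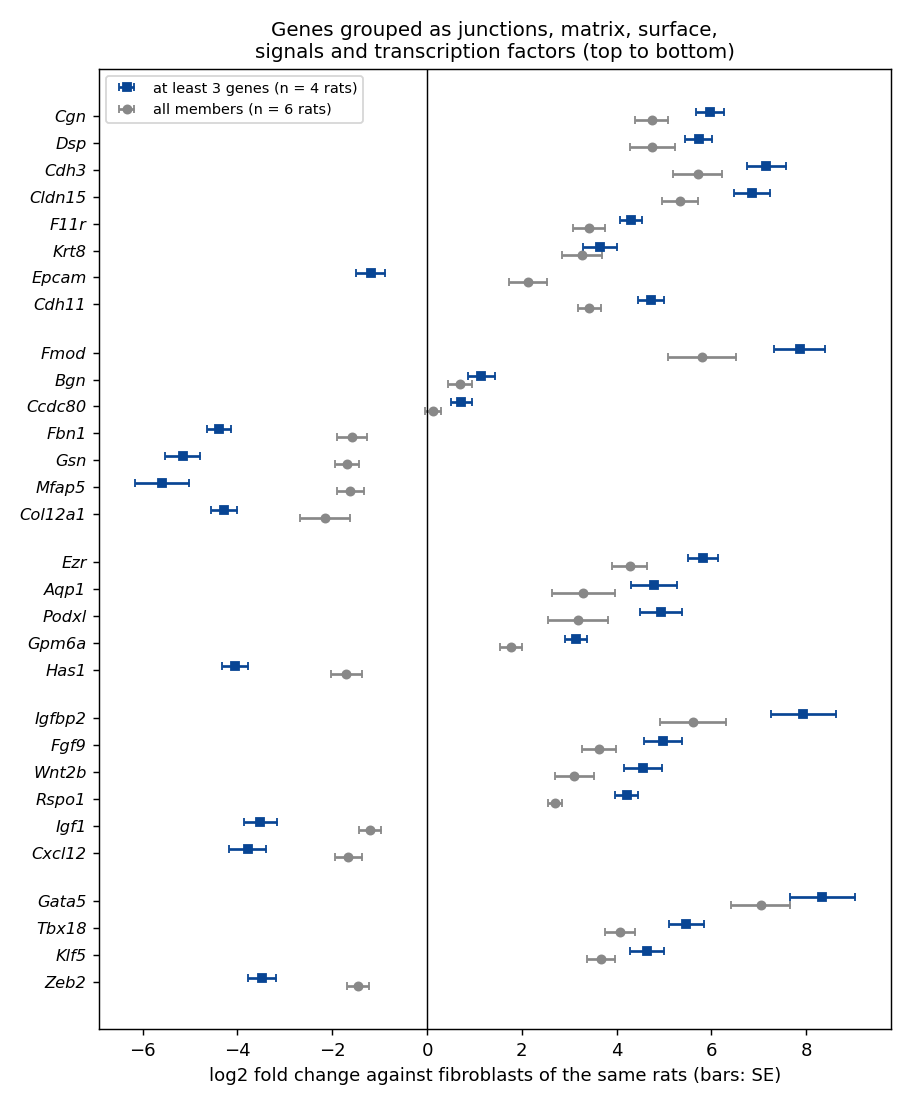
Log2 fold change against fibroblasts for 30 genes ordered by role (junctions, matrix, surface, signals, transcription factors), with squares for 3-gene cells (n = 4 rats), circles for all members (n = 6 rats) and bars for the SE. Cgn, Dsp, Cdh3, Ezr and Fmod lie above 0 and Gsn, Fbn1, Mfap5 and Zeb2 below 0 in both fits, while Epcam is on opposite sides.

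Mesenchymal genes were mixed, with 2 of 14 higher and 6 lower over all members (median -0.99), against 7.85% and 8.55% of all genes. Over 3-gene cells 1 was higher and 10 lower (median -3.23), against 11.5% and 14.9%. The one higher in 3-gene cells was Cdh11. Vim (vimentin), the intermediate filament of mesenchyme that mesothelium also holds, was at 673 to 5085 CPM in 3-gene cells and 788 to 1585 CPM in fibroblasts and was not called (-0.07 ± 0.23 and 0.61 ± 0.25, adjusted p = 0.097). Zeb2, a repressor of epithelial genes, was at 0 to 183 CPM against 173 to 945 CPM (-1.45 ± 0.23 and -3.48 ± 0.29), and Prrx1 of mesenchyme had 3 UMIs in the 4 rats, a ratio of 0.0112 (95% counting interval 0.0023 to 0.0327), and was at 24.9 CPM against 207 CPM in HFHF-old replicate 2.

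Several transcription factors of the developing body cavity lining were higher. Over all members 10 of 22 tested developmental factors were higher and 3 lower (median 0.42), against 7.85% and 8.55% of all genes. The counts over 3-gene cells were also 10 and 3 (median 0.50), against 11.5% and 14.9%. Gata5 was at 19.3 to 53.0 CPM in 3-gene cells and 0 to 0.338 CPM in fibroblasts (7.04 ± 0.62 and 8.34 ± 0.68). Tbx18, a T-box factor of epicardium and other coelomic linings, was at 58.0 to 109 CPM against 0.227 to 3.00 CPM (4.07 ± 0.32 and 5.47 ± 0.37), and Klf5 at 53.0 to 139 CPM against 1.14 to 10.5 CPM (3.67 ± 0.30 and 4.64 ± 0.35). All 3 were apart from fibroblasts in every rat. Tcf21, a factor of visceral fibroblasts, had 0 UMIs in the 4 fitted rats and was at least 28.1-fold lower (taking 3 counts over these rats as the floor).

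Among secreted signals, the list of WNT, BMP, Notch and growth factor genes had 9 of 30 higher and 10 lower over all members (7.85% and 8.55% of all genes). Over 3-gene cells 8 of 28 were higher and 15 lower (11.5% and 14.9% of all genes). The WNT ligand Wnt2b was at 28.5 to 133 CPM against 1.52 to 4.74 CPM in fibroblasts (3.10 ± 0.41 and 4.56 ± 0.39), the WNT enhancer Rspo1 at 406 to 898 CPM against 14.5 to 50.2 CPM (2.70 ± 0.15 and 4.21 ± 0.24), and Fgf9 at 53.0 to 221 CPM against 1.28 to 10.1 CPM (3.63 ± 0.36 and 4.98 ± 0.41). These were above fibroblasts in every rat. Related signals were lower in the 4 fitted rats. Rspo3 had 1 UMI in the 4 rats (ratio 0.0124, 95% counting interval 0.000315 to 0.0693), whereas in HFHF-old replicate 2, outside the fit, it was at 74.8 CPM against 35.0 CPM in fibroblasts. Fgf10 had 0 UMIs against 92.7 CPM in fibroblasts, at least 55.2-fold lower on the same floor.

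For the insulin-like growth factor genes 2 of 12 were higher and 3 lower over all members (7.85% and 8.55% of all genes), and 3 of 11 higher and 4 lower over 3-gene cells (11.5% and 14.9% of all genes). Igfbp2, given above, and Igfbp4 (265 to 881 CPM against 84.4 to 343 CPM, 0.75 ± 0.21 and 1.20 ± 0.26) were higher. Igf1 itself was at 25.4 to 148 CPM against 189 to 891 CPM (-1.21 ± 0.24 and -3.52 ± 0.35) and was lower. Igfbp5 was at 79.6 to 4331 CPM against 1211 to 3733 CPM and lower (-1.59 ± 0.30 and -2.91 ± 0.52), with 341 of the 666 UMIs of old replicate 1 in 1 cell. The 4331 CPM was that of HFHF-old replicate 2, outside the 4-rat fit, where 6 of 7 cells held 521 UMIs and the level was above that of fibroblasts.

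Retinoid genes gave 3 higher and 1 lower of 14 over all members (7.85% and 8.55% of all genes) and 4 higher and 5 lower of 16 over 3-gene cells (11.5% and 14.9% of all genes). Aldh1a2, which makes retinoic acid and is a known mesothelial gene, was at 883, 796, 784, 606, 510 and 532 CPM in 3-gene cells and 135 to 755 CPM in fibroblasts. The ranges overlapped, and the log2 fold change was -0.10 ± 0.22 over 3-gene cells (adjusted p = 0.81) and -0.59 ± 0.15 over all members (adjusted p = 0.018). Rarres2 (chemerin) was higher at 1014 to 2493 CPM against 223 to 526 CPM (0.85 ± 0.17 and 2.06 ± 0.23).

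Of 16 complement and acute phase genes, 3 were higher and 3 lower over all members (7.85% and 8.55% of all genes), and 6 and 3 over 3-gene cells (11.5% and 14.9% of all genes). Cfb (complement factor B, ENSRNOG00000000419) was at 42.7 to 174 CPM against 2.04 to 13.2 CPM (2.50 ± 0.30 and 3.78 ± 0.37). C3, the central complement protein, was at 0 to 218 CPM against 2.59 to 70.2 CPM (3.55 ± 0.84, adjusted p = 0.0057, over 3-gene cells and 1.89 ± 0.68, adjusted p = 0.083, over members), and the ranges overlapped. The complement inhibitor Cd55 was lower, at 90.3 to 477 CPM against 113 to 886 CPM (-1.06 ± 0.27 and -2.12 ± 0.22).

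Chemokines and cytokines were mostly lower, 11 of 19 with 2 higher over all members (median -1.12), against 8.55% lower and 7.85% higher of all genes. Over 3-gene cells 10 of 18 were lower with 3 higher (median -1.55), against 14.9% and 11.5%. Cxcl12, which retains leukocytes in stroma, was at 17.8 to 67.3 CPM against 203 to 687 CPM (-1.66 ± 0.29 and -3.78 ± 0.39), and Ccl2, which draws monocytes, at 0 to 407 CPM against 89.7 to 643 CPM (-1.52 ± 0.31 and -2.59 ± 0.33). Cxcl14 had 0 UMIs in the 4 fitted rats (at least 27.6-fold lower). Cx3cl1 (fractalkine) was higher at 16.6 to 26.5 CPM against 0.993 to 4.43 CPM (1.99 ± 0.45 and 3.57 ± 0.49). Among 21 other inflammatory genes 1 was higher and 6 lower over all members (7.85% and 8.55% of all genes) and 1 and 9 over 3-gene cells (11.5% and 14.9%). Ptgs2 (cyclooxygenase 2) was among the lower (-1.32 ± 0.16 and -2.0 ± 0.45), while Icam1 was not called over 3-gene cells (0.19 ± 0.23).

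Genes of fibrinolysis and coagulation gave 0 higher and 8 lower of 13 over all members (median -1.17), against 7.85% and 8.55% of all genes. Over 3-gene cells 2 were higher and 9 lower (median -1.45), against 11.5% and 14.9%. Plau (urokinase), a plasminogen activator, was at 0 to 6.1 CPM in 3-gene cells against 28.9 to 130 CPM (-1.57 ± 0.30 and -4.88 ± 0.40), and Thbd (thrombomodulin) at 22.8 to 166 CPM against 203 to 1054 CPM (-1.71 ± 0.29 and -4.27 ± 0.42). Anxa2, a surface receptor for plasminogen, was higher in 3-gene cells, at 483 to 1701 CPM against 128 to 516 CPM (1.35 ± 0.19), and was not called over all members (0.65 ± 0.23, adjusted p = 0.074).

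Of the antioxidant genes, the theme of the study, few were called. Over all members 0 of 34 were higher and 2 lower, and over 3-gene cells 2 were higher and 3 lower (median 0.11), beside the 7.85% higher and 8.55% lower, and 11.5% higher and 14.9% lower, of all genes in those fits. Extracellular enzymes were among the lower, Gpx3 (glutathione peroxidase 3) at 12.7 to 540 CPM against 452 to 1691 CPM (-1.37 ± 0.32 and -4.70 ± 0.42) and Sod3 (extracellular superoxide dismutase) at 28.5 to 83.1 CPM against 65.1 to 272 CPM (-1.05 ± 0.16 and -2.23 ± 0.24). The higher ones over 3-gene cells were Prdx6 (0.97 ± 0.29) and Txnrd1 (0.85 ± 0.21).

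Of the immediate early genes, which tissue digestion is known to induce, 6 of 21 were lower and 0 higher over all members (median -0.46), against 8.55% and 7.85% of all genes, and 14 of 20 were lower and 2 higher over 3-gene cells (median -1.51), against 14.9% and 11.5%. Fos was at 245, 636, 639, 3302, 1646 and 4921 CPM in 3-gene cells and 528 to 4447 CPM in fibroblasts, so that the ranges overlapped, with log2 fold changes of -0.42 ± 0.20 over all members (adjusted p = 0.2) and -1.53 ± 0.45 over 3-gene cells. Dusp1 (-0.77 ± 0.15 and -1.85 ± 0.40) and Ier2 (-0.81 ± 0.23 and -2.82 ± 0.35) were lower in both fits. Differences in these genes can hold the response to digestion, and its part was not tested.

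Transcripts of other pancreatic cells were counted in each class. The islet list took 0.12%, 0.22%, 0.227%, 0.16%, 7.49% and 0% of the UMIs of 3-gene cells and 3.37%, 25.3%, 7.15%, 4.12%, 7.78% and 0.0904% of those of fibroblasts. Ins1 was at 570, 822, 1007, 645, 31225 and 0 CPM in 3-gene cells, high in HFHF-old replicate 1 alone, where 1 insulin-rich cell held 30120 Ins1 UMIs and no other 3-gene cell more than 62, and at 13566, 106900, 29963, 13275, 32991 and 395 CPM in fibroblasts (-3.88 ± 0.69 over 3-gene cells). All 9 tested islet genes were lower in 3-gene cells, and 0 of 9 were called over all members (median 0.97). All 14 acinar genes were lower in both fits, beside 8.55% and 14.9% of all genes. The acinar list took 0.0694% to 7.08% of fibroblast UMIs. It took 0.18% to 5.75% in lymphocytes, cells with Ptprc and at least 3 of Cd3e, Cd3d, Cd3g, Cd2 and Nkg7. Of the 11826 fibroblasts 312 were insulin-rich, 194 of 1151 in young replicate 2. The part of RNA from outside the cells and of mixed cells in these differences was not tested. Prss1 (trypsinogen) was at 16.6 to 899 CPM in 3-gene cells and 76.5 to 19944 CPM in fibroblasts (-2.0 ± 0.26 and -2.68 ± 0.36).

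Acinar genes were also among the 10 with the lowest changes over all members and at least 100 CPM in fibroblasts, Pnlip (-2.24 ± 0.26), Prss3b (-2.19 ± 0.32), Cpb1, Sycn and Pnliprp1 among them, beside Akr1c3, Abca8a, Col12a1 and the lipid phosphatase Plpp3 (-2.04 ± 0.31). Against fibroblasts with at least 5 of their 6 genes these 5 acinar genes were no longer called, with log2 fold changes of -0.60 to -0.29. Ductal genes were higher over all members (5 of 8, 1 lower, median 1.97) and in the 2-gene cells (5 of 8, 1 lower), while in 3-gene cells 0 of 6 were higher and 3 lower (median -1.86, or -1.44 with the gene at 0 set at its bound). Macrophage genes were lower in 7 of 10 over all members and 5 of 9 over 3-gene cells, with 0 higher. Beside these stand the shares of all genes, 7.85% higher and 8.55% lower over members and 11.5% and 14.9% over 3-gene cells. For the 2-gene cells they were 2.34% and 1.43%.

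The smaller lists of other cells had 3 to 7 tested genes each. Of all genes, 7.85% were higher and 8.55% lower over all members, and 11.5% and 14.9% over 3-gene cells. Of T and NK cell genes 0 of 4 were higher and 1 lower over all members and 1 of 3 was higher over 3-gene cells. Of endothelial genes 0 of 7 were higher and 1 lower, and 0 of 4 higher and 3 lower over 3-gene cells. Of smooth muscle genes 0 of 5 were called over all members, and over 3-gene cells 1 of 4 was higher, Des (desmin, 1.90 ± 0.39), and 1 lower.

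Cycling transcripts were uneven between rats. At least 3 genes of a proliferation list were detected in 2 of 22, 2 of 2, 3 of 25, 0 of 21, 16 of 23 and 1 of 7 3-gene cells, and in 469 of 11826 fibroblasts. HFHF-old replicate 1, with the deepest cells, held 16 of the 24 such mesothelial cells and 212 of these 469 fibroblasts (of 2453). Young replicate 2 held 159 of 1151 fibroblasts with a median of 6178 UMIs, a larger share at less depth. The part of depth was not tested. Mki67, made in cycling cells, was at 0, 345, 0, 0, 231 and 0 CPM in 3-gene cells, and Cenpf, a centromere protein of dividing cells, at 0, 796, 0, 0, 557 and 0 CPM. Against fibroblasts 0 of 8 proliferation genes were called over all members (7.85% higher and 8.55% lower of all genes). Cdk1 (2.22 ± 0.46) and Birc5 (2.70 ± 0.58) were higher over 3-gene cells, where 11.5% of all genes were.

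The design also compares ages and diets within these cells. Over all members 0 of 9033 genes (0.0%) were called by edgeR with age and 0 (0.0%) with diet at the same age, with 515 and 834 genes at an unadjusted p under 0.05, and DESeq2 called 8 and 33 (13 higher and 20 lower in HFHF-old). DESeq2 gave no adjusted p for 4909 and 4207 of the 9033 genes, so its calls are over fewer genes than those of edgeR. Among its higher calls with diet, Ccl2 had the smallest adjusted p, at 26.3, 32.6, 26.6, 38.2, 563 and 294 CPM over members (log2 fold change 3.36 ± 0.61, DESeq2 adjusted p = 0.00016, n = 2 rats a group), and both HFHF-old rats lay above the other 4. Cd44, Fbn1 and Fbln2 of stroma were also higher by DESeq2 (3.66 ± 0.85, 2.49 ± 0.65 and 2.09 ± 0.48). Among the DESeq2 calls lower with diet were Epcam, at 80.5, 175, 262, 276, 49.2 and 17.3 CPM over members, the islet hormone Sst and the ductal factor Sox9, the last 2 at no more than 26.5 and 3.05 CPM in 3-gene cells. Sst was at 5702 CPM over members in old replicate 2 and at 8.36, 2.20 and 0 CPM in old replicate 1 and the HFHF-old rats, so that its call rested on 1 rat. Over members the islet list had a median log2 fold change of -3.35 and the ductal list of -2.99 between HFHF-old and old. The median was 1.31 for the list of other fibroblast genes and 1.38 for the fibrillar list, and edgeR called 0 genes of each list. The fibroblast rule was met by 30 of 56 and 17 of 40 old members and by 111 of 113 and 12 of 13 HFHF-old members. The part of islet, ductal and fibroblast-like cells in the DESeq2 calls was not tested. In simulated data of this size edgeR recovered 0% of genes changed by a log2 fold change of 1, 13.5% at 2 and 74% at 3 in the comparison of ages, so that with these rats and cells most changes of the 2 smaller sizes would not have been called. The DESeq2 call with the smallest adjusted p for age was Pla2g2a, a secreted phospholipase of host defence, at 138, 36.6, 725, 775, 1324 and 1429 CPM over members and 645, 451, 2307, 2090, 4689 and 1945 CPM in 3-gene cells. Both young rats lay below all 4 old and HFHF-old rats in each class of cells. Over members the log2 fold change was 3.14 ± 0.56 (DESeq2 adjusted p = 9.2e-05, n = 2 rats a group). Hspb1, a small heat shock protein, was at 202, 53.0, 477, 1393, 771 and 1363 CPM in 3-gene cells. Young replicate 2 held 2 Hspb1 UMIs, and 119 of the 216 UMIs of old replicate 2 were in 1 cell. Sbsn (suprabasin) was at 416, 398, 898, 1858, 899 and 532 CPM. Both had young values below the 4 other rats, and both were DESeq2 calls over members (3.00 ± 0.72 and 2.74 ± 0.57). Of the members' UMIs, 3-gene cells gave 252648 of 1179821 and 37711 of 491155 in young rats. In old rats they gave 394074 of 1316349 and 155044 of 445267. The part of this mix in the changes over members was not tested.

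Over 3-gene cells alone 8 genes were called for age and 72 for diet (61 higher in HFHF-old), but with 1 young and 1 HFHF-old rat in the fit, which were assumed to vary like the old rats. With rats of at least 5 cells included, the numbers were 1 and 0. Among the 8 were Nr4a1, an immediate early receptor, at 15.8, 106, 178, 413, 228 and 399 CPM, and Fabp4, a fatty acid carrier, at 360, 0, 2.54, 6.45, 13.2 and 2403 CPM, for which the rats outside the fit did not follow their group. The leading genes for diet included Cenpf and Mki67, given above for every rat, and HFHF-old replicate 2 held 0 UMIs of both.

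The share of members was spread widely between the 2 old rats and between the 2 HFHF-old rats, and less between the young rats. Members were 0.377%, 0.31%, 0.749%, 0.244%, 0.903% and 0.111% of kept cells. The exact 95% binomial intervals, which cover counting error only, were 0.292% to 0.479% and 0.212% to 0.437% in young, 0.566% to 0.971% and 0.174% to 0.332% in old, and 0.745% to 1.08% and 0.059% to 0.189% in HFHF-old rats. The highest and lowest rat were both HFHF-old. The group means were 0.343% ± 0.0475, 0.496% ± 0.357 and 0.507% ± 0.56 (SD, n = 2 each), with exact two-sided permutation p of 1.0 between old and young and 1.0 between HFHF-old and old. With 2 rats against 2 the smallest p possible is 0.333.

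The 3-gene cells were 0.126%, 0.0194%, 0.334%, 0.128%, 0.184% and 0.0596% of kept cells. Both old rats lay above both young rats, though young replicate 1 and old replicate 2 had overlapping intervals and, without the doublets of the 15-neighbour score, changed order (0.14% and 0.0981%, exact permutation p = 0.667), with means of 0.0725% and 0.231% (exact permutation p = 0.333), and HFHF-old had a mean of 0.122% (p = 0.667, exact). Per 100 mesothelial and fibroblast cells together, 3-gene cells came to 0.519, 0.173, 2.23, 0.964, 0.929 and 0.926, again with every old rat above every young rat, and both HFHF-old rats between them (exact permutation p = 0.333 for each contrast). Without those doublets the old rats came to 2.30 and 0.699 and the HFHF-old rats to 0.872 and 0.693, which overlapped (exact permutation p = 0.667). The planned doublet score marked every 3-gene cell of both young rats and of old replicate 2, so the order of these rats cannot be read under it. All members came to 1.54, 2.70, 4.86, 1.82, 4.40 and 1.71 per 100, and the groups overlapped (exact permutation p = 0.667 for each). Without the doublets of the planned score, members came to 0.863, 2.39, 4.73, 0.246, 3.55 and 1.41 per 100, with old replicate 2 the lowest. Since depth differed between rats, cells were also thinned to 2000 UMIs and shallower ones left out (64, 28, 51, 31, 112 and 13 members were deep enough), which left 31, 7, 31, 26, 39 and 3 members, or 0.821, 0.887, 2.82, 2.67, 1.46 and 0.557 per 100. There both old rats lay above the other 4, with mean differences of 1.89 from young and -1.74 for HFHF-old minus old (exact permutation p = 0.333 for each). The fibroblast count enters this share. How much surface tissue each islet preparation carried was not recorded in the labels, and its part was not tested.

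**Figure D4:**
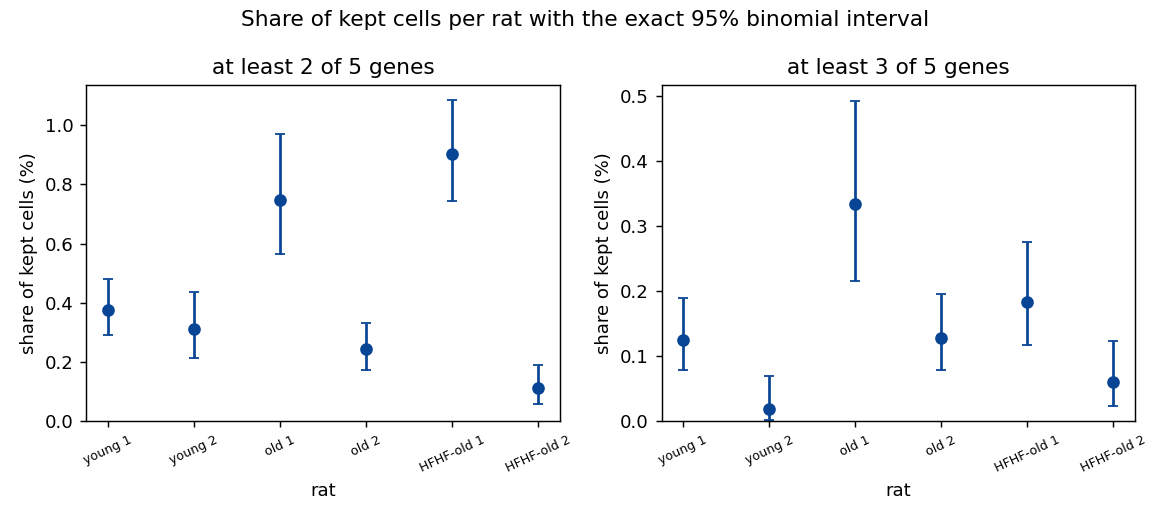
Cells with at least 2 and cells with at least 3 of the 5 genes of the rule, as a percent of kept cells in each of the 6 rats, with exact 95% binomial intervals that cover counting error only. For at least 2 genes, HFHF-old replicates 1 and 2 span the range at 0.903% (90 of these 113 were 2-gene cells) and 0.111%.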

How the data were processed

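Single-cell RNA was measured in pancreas of 6 rats, 1 library per rat. Per the labels, islets were isolated with collagenase P and a density gradient and libraries made with the 10x 3' v3.1 kit. The deposited values are whole-number counts of UMIs for every barcode and gene, the filtered matrices of Cell Ranger, whose version is 5.0.0 per the file headers, and the submitters' processing notes give the build Rnor_6.0. The authors did not pool rats in these files. Of the columns, 0 belonged to samples of another series.

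Barcodes with under 200 genes or over 25% mitochondrial UMIs were left out, which kept 75981 with medians of 2547 to 9824 UMIs per rat. Library totals of 77387928 to 166875258 UMIs limit the precision of scarce transcripts, and intervals cover counting error only. Members and fibroblasts were chosen per cell by detected genes, without clustering, and the members and gene lists were chosen with earlier results of these data known. Doublets were kept, and were scored against simulated doublets for alternatives. Within each rat the UMIs of a class were added up, unless the class had under 10 cells there. The deposited counts, so summed, were tested with edgeR 4.0.16 (R 4.3.3, TMM, filterByExpr, glmQLFit, glmQLFTest), with the rat as a block against fibroblasts and in 1 model of 3 groups between ages and diets. SE was the log2 fold change over the square root of F. The rule's genes and Ptprc were left out of the counts of called genes. On simulated data with 200 changed genes, edgeR recovered 48%, 87.5% and 95% at log2 fold changes of 1, 2 and 3 against fibroblasts. DESeq2 1.42.0, other filters, other rules for either class, cells with the most genes left out and each rat left out were the alternatives.

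Named genes were the 10 highest and 10 lowest log2 fold changes among called genes of the same sign in every fitted rat with at least 100 CPM in the higher class, provisional symbols aside, in the fits over members and over 3-gene cells, up to 4 genes of each list, and up to 5 called genes a direction between groups. Of the last, those that rest on a group at 0 are given as values. Shares were compared by exact permutation tests (scipy 1.17.1). No other batch is given in the labels. Some genes that this rule names are not reported here.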

Additional observations from a re-analysis of the deposited data

How the results depend on the processing

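The number of genes called against fibroblasts, 1955 over all members, rose to 3012 with the 3-gene cells and was 437 with the 2-gene cells. It was 767 with no rat block, so that the 2 classes of a rat were not paired, and 1185 without the 1% of barcodes with the most genes. It was 91 (16 higher, 75 lower) without the barcodes most like simulated doublets, a fit that also lost old replicate 2 and so ran on 5 rats. The last score marked 69 of the 100 3-gene cells, among them 22 of 22 in young replicate 1, 21 of 21 in old replicate 2 and 1 of 25 in old replicate 1. A score over 15 neighbours, chosen after seeing the data, marked 14 of them and left 1415 calls. Leaving out each rat in turn gave 1251 (without old replicate 1) to 2048 calls, and 1287 without young replicate 1. Without the block 519 genes were higher and 248 lower. Of the 20 genes with the largest changes over all members none changed direction where fitted, 7 were no longer called without the block, 6 against fibroblasts with at least 5 genes, and 10 of 19 without the first set of doublets, where Pkhd1l1 was not tested.

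Between groups edgeR called 0 genes over members. For age the count was 8 with DESeq2, 126 with every gene kept, 8 with 3-gene cells, 12 without doublets and 1 with 3-gene cells and at least 5 cells a rat, and for diet 33, 319, 72, 6 and 0. Leaving out each rat gave 0 to 0 for age and 0 to 89 for diet, with 41 without HFHF-old replicate 1 and 89 without HFHF-old replicate 2. The cause was not tested. A block for the replicate number, added to the fit between groups, gave 0 calls for both. Same-numbered rats correlated at 0.195, -0.247 and -0.00399 in their deviations. With 2 rats a group the deviations of replicates 1 and 2 mirror each other, so these values cannot decide whether the numbers pair the rats. No exact test of a share could pass a threshold of 0.05. For the share of kept cells the difference between HFHF-old and old changed sign, from 0.0108 to -0.109 percentage points with 3-gene cells and -0.174 after thinning to 2000 UMIs. It ran from -0.385 without HFHF-old replicate 1 to 0.407 without HFHF-old replicate 2 (0.263 and -0.242 without old replicates 1 and 2), and old minus young from -0.0999 without old replicate 1 to 0.405 without old replicate 2.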
